A study of Homo sapiens with 4 samples.

Results

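The HOX clusters and the 1 Mb on each side of them were searched for binding sites of the transcription factor CEBPB, which binds DNA through a basic leucine zipper. The cells were NCM460, an established line of human colon epithelium. Sites were taken by position alone: a peak counted if its summit, the position of highest signal, lay in one of 4 windows of the hg19 build. These were HOXA on chromosome 7 (27.13 to 27.25 Mb), HOXB on chromosome 17 (46.6 to 46.81 Mb), HOXC on chromosome 12 (54.33 to 54.45 Mb) and HOXD on chromosome 2 (176.95 to 177.06 Mb), together 0.56 Mb, or their flanks, together 8 Mb. On chromosomes 1 to 22 and X, replicate 1 held 75169 peaks, 365 of them at these loci, and replicate 2 held 97829, 443 of them at these loci. Also taken were 114 of the 25602 distinct regions listed by the authors as reproducible, which are peaks of both replicates with an irreproducible discovery rate (IDR) of at most 0.05. These are called reproducible regions below. Inside the clusters lay 26 peaks of replicate 1, 30 of replicate 2 and 6 reproducible regions, and in the flanks 339, 413 and 108.

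The series held 2 samples of chromatin precipitated with an antibody to CEBPB and 2 input samples of total chromatin. All came from NCM460 cells grown in serum-containing medium, with no treatment or genotype named in the labels. A single cell line was used, the labels do not say whether the replicates came from separate cultures, and no HOX gene activity was measured. Peaks were called against input, separately for each ChIP sample. Values in this text are the authors' fold over the input background at a summit, and the fragments (extended reads) and background recovered from the authors' fold and p-value. Coverage in replicate 2 was 1.57 times that in replicate 1, by that recovery.

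HOX genes encode homeodomain transcription factors that give cells their position along the body axis. In mammals they lie in 4 clusters that arose by duplication, and their order on the chromosome follows the order in which they act from head to tail. The genes of highest number are called posterior and are active in the hindgut among other tissues. Inactive clusters are held by Polycomb complexes, and distant enhancers in the flanks drive active genes. CEBPB is known for its part in inflammation, the acute phase response and cell differentiation.

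Gene order was read from a RefSeq table of the GRCh38 build and is given as background only, since no annotation of hg19 was used and no site is assigned to a gene. That table holds 39 HOX genes in the clusters. With increasing coordinate HOXA and HOXB run from their anterior to their posterior genes, whereas HOXC runs from HOXC13 to HOXC4 and HOXD from HOXD13 to HOXD1. The neighbours are related between loci as well. On the anterior side lie SKAP2 (HOXA) and SKAP1 (HOXB), adaptors of Src family kinase signalling, and farther out are CBX3 and CBX1, members of the heterochromatin protein family, with CBX5 beside HOXC. Each locus also has a cap'n'collar bZIP gene among the 5 nearest on one side: NFE2L3, NFE2L1, NFE2 and NFE2L2. EVX1 and EVX2, homeobox genes related to HOX, border the posterior ends of HOXA and HOXD.

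**Figure D1:**
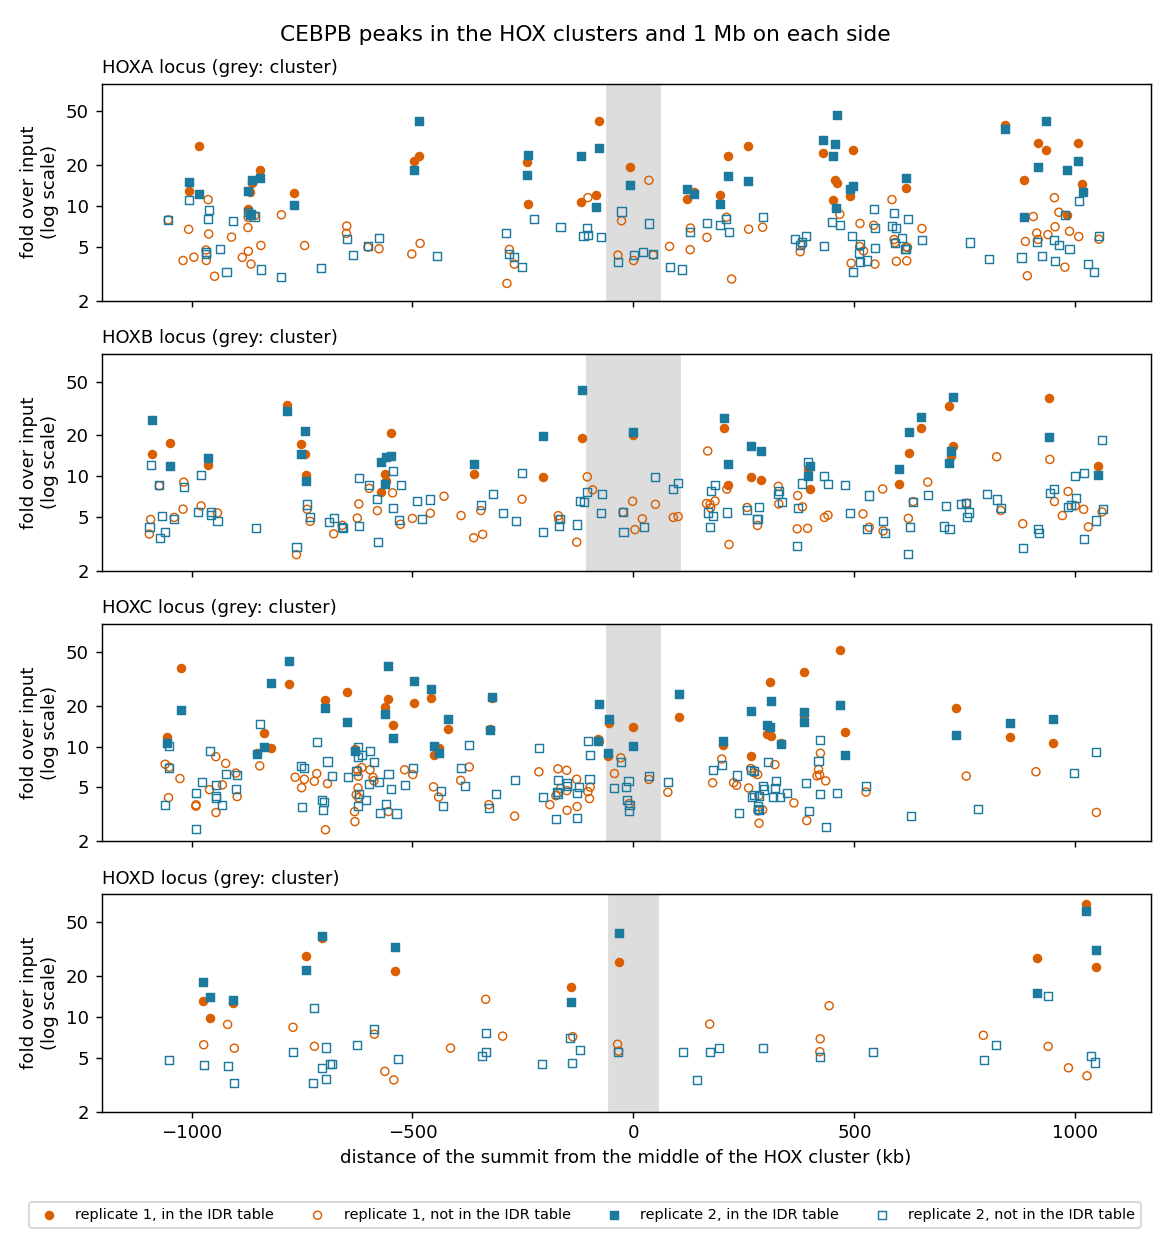
Fold over input (log axis) of every CEBPB peak against the distance of its summit from the middle of the HOX cluster in kb, for the 4 loci; circles are replicate 1, squares replicate 2, filled marks are peaks in the IDR table and the grey band is the cluster. Filled marks run along both flanks of HOXA, HOXB and HOXC, while the higher-coordinate side of HOXD has none until near its outer end.

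To ask whether CEBPB sites were sparser or denser in the clusters than around them, peaks were counted per Mb. Replicate 1 had 46.4 peaks per Mb in the clusters (95% exact Poisson interval 30.3 to 68.0) and 42.4 in the flanks (38.0 to 47.1). Replicate 2 had 53.6 in the clusters (36.1 to 76.5) and 51.6 in the flanks (46.8 to 56.9). The clusters were thus neither clearly poorer nor richer in peaks than their surroundings: the ratio of clusters to flanks was 1.10 in replicate 1 (exact conditional interval 0.705 to 1.63) and 1.04 in replicate 2 (0.691 to 1.50). For reproducible regions the densities were 10.7 per Mb in the clusters (3.93 to 23.3) and 13.5 in the flanks (11.1 to 16.3), a ratio of 0.794 (0.285 to 1.78). These intervals cover counting error only, sites of one genome are not independent, and the last ratio rests on 6 regions in the clusters. Within single loci the ratio was 0.990 at HOXA, 1.01 at HOXB, 1.02 at HOXC and 1.82 at HOXD in replicate 1, and 1.05, 0.762, 1.38 and 0.826 in replicate 2. Leaving out single loci turned the direction of each overall ratio: without HOXD it was 0.992 in replicate 1, without HOXC 0.925 in replicate 2, and without HOXB 1.07 for reproducible regions.

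Chromosomes 1 to 22 and X as a whole had 24.8 and 32.2 peaks per Mb in replicates 1 and 2 and 8.43 reproducible regions per Mb. The flanks of HOXA, HOXB and HOXC lay above those values in all 3 sets, and the flanks of HOXD below. Reproducible regions per Mb numbered 17 in the HOXA flanks (interval 11.8 to 23.8), 14 in the HOXB flanks (9.30 to 20.2), 18 in the HOXC flanks (12.6 to 24.9) and 5 in the HOXD flanks (2.40 to 9.20). The HOXD interval ended just below the start of the HOXB one and included the value of the series as a whole. By peaks, the HOXD flanks had 15 per Mb in replicate 1 (10.1 to 21.4) and 22 in replicate 2 (16 to 29.5), below the series as a whole in both. The loci were not tested against each other. In the clusters the peak counts were 6 and 7 for HOXA in replicates 1 and 2, 10 and 10 for HOXB, 7 and 11 for HOXC, and 3 and 2 for HOXD.

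**Figure D2:**
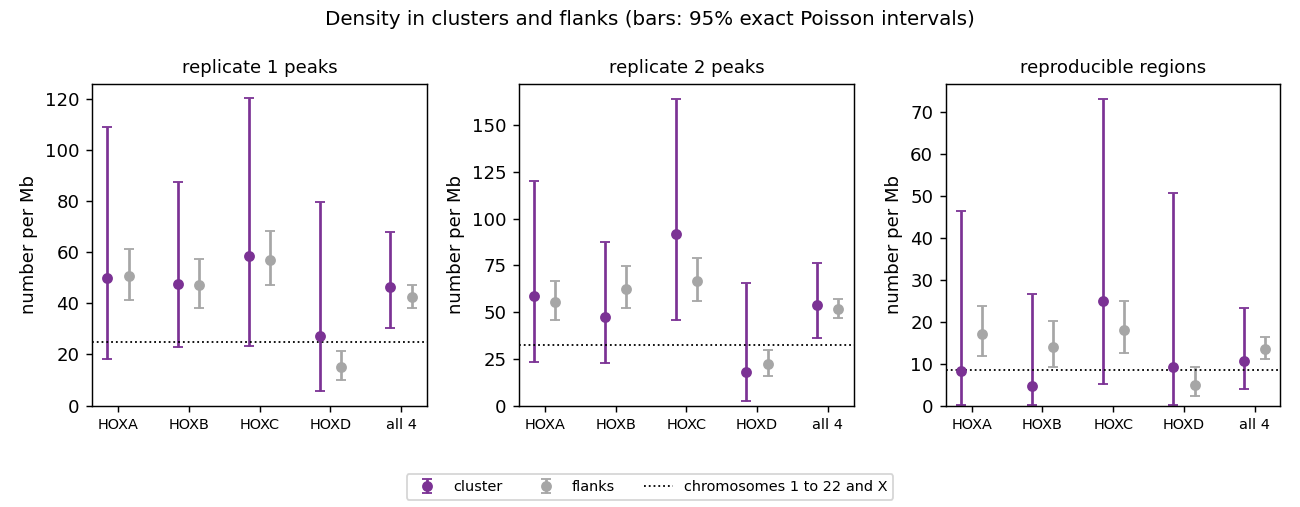
Peaks or reproducible regions per Mb in each HOX cluster (purple) and its flanks (grey), with 95% exact Poisson intervals as bars and the density over chromosomes 1 to 22 and X as a dotted line. In every panel the interval of a cluster overlaps that of its own flanks, and the HOXD flanks are the lowest of the flanks.

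Cluster and flank peaks had close median folds. In replicate 1 the median fold was 6.29 in the clusters (quartiles 4.98 and 9.56) and 6.69 in the flanks (4.97 and 11.2). In replicate 2 it was 5.82 in the clusters (4.47 and 8.97) and 6.31 in the flanks (4.68 and 10.5). The ratios of clusters to flanks were 0.941 in replicate 1 and 0.922 in replicate 2, but they ran from 0.754 to 1.18 with −log10 p in place of fold, with IDR-table peaks alone or without 1 locus. Their direction depended on the setting: above 1 were replicate 1 without HOXB (1.05) and in the IDR table, and replicate 2 without HOXC (1.17) and by −log10 p (1.02). Over all peaks the medians were 7.15 in replicate 1 and 6.68 in replicate 2. Reproducible regions had a median of the mean fold of 16.1 in the clusters, 15.7 in the flanks and 15.8 over the series. An IDR of at most 0.01 was reached by 4 of 6 cluster regions and 67 of 108 flank regions, against 60.6% of all regions.

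The input background at the summits is given in expected fragments on the scaled pileup. Its median was 2.51 in the clusters and 2.91 in the flanks in replicate 1, and 3.60 in the clusters and 3.00 in the flanks in replicate 2, so the direction differed between the replicates. Without HOXB the replicate 1 ratio of clusters to flanks was 1.03, against 0.863 with it. By locus, the HOXC cluster had medians of 4 and 4.52 in replicates 1 and 2 and the HOXB cluster 2 and 2.31, so HOXC sites stood over more input signal than HOXB sites in both. At the HOXD flanks, 6 of 30 summits in replicate 1 and 16 of 44 in replicate 2 sat at the lowest background the peak caller assigns, against 11.4% and 17.8% of all peaks. Among cluster peaks 0 of 26 did so in replicate 1 and 1 of 30 in replicate 2. The former allows a share of up to about 11.5%, by the approximation of 3 counts over 26. The part of the background in the number of peaks called was not tested.

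The replicates shared the sites of these loci about as often as sites elsewhere. Of the replicate 1 peaks, 21 of 26 in the clusters and 267 of 339 in the flanks overlapped a replicate 2 peak by at least 1 bp, or 78.9% together, against 82% of all peaks. Of the replicate 2 peaks, 21 of 30 in the clusters and 265 of 413 in the flanks overlapped a replicate 1 peak, or 64.6% together, against 62.8% of all peaks. In the IDR table were 113 of 365 replicate 1 peaks (31.0%), against 34.2% of all peaks, and 113 of 443 replicate 2 peaks (25.5%), against 26.3%. These shares are near the background, and nothing particular to the HOX loci is read from them. Peaks at these loci seen in both replicates were stronger, with median folds of 7.75 in replicate 1 and 8.81 in replicate 2, than peaks seen in 1 replicate, with 4.98 and 4.84. In the clusters alone 6 of 26 and 6 of 30 peaks were in the table (23.1% and 20.0%).

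Joined by overlap, the cluster peaks made 35 sites, of which 21 were seen in both replicates, 5 in replicate 1 only and 9 in replicate 2 only. The summits of the 21 shared sites lay a median of 10 bp and at most 40 bp apart between replicates. Sites seen once were all weak, with folds of 3.67 to 7.93. Shared sites ranged in mean fold from 3.56 to 33.5, and 15 of the 21 were not in the IDR table. Of all replicate 1 peaks 82% were shared but 34.2% were in that table, so most shared peaks of the series were outside it too.

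The HOXD cluster had the strongest site of the 4 clusters, at chr2:176971832-176972241. Its fold was 25.4 in replicate 1 and 41.7 in replicate 2, a mean of 33.5 ± 11.5 (SD, n = 2), and it rested on 136 and 155 fragments over backgrounds of 4 and 2. Replicate 2 had the higher fold over the lower background, which was itself solved from the fold. The summits of the replicates lay 1 bp apart. This region ranked 1689 of 25602 by mean fold and had an IDR of 2.6e-05. It lay 22 kb from the low end of the cluster window, the end that carries HOXD13, a gene of limb and hindgut patterning. The other cluster sites of HOXD were close by and weak: replicate 1 marked 176969036 to 176969192 with a fold of 6.27 (5.51 in replicate 2) and, unshared, 176971280 to 176971534 with 5.58. The remaining 88.0 kb of the cluster, toward HOXD1, held no peak in either replicate.

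The HOXB cluster, the longest with 210 kb, had 1 reproducible region among 14 sites. It lay near the middle of the cluster, at chr17:46703818-46704097, with folds of 20.2 and 21.1 in replicates 1 and 2, a mean of 20.6 ± 0.674 (SD, n = 2), and 54 and 78 fragments. The other sites were weak. On its HOXB1 side lay 7 sites, of which 2 were shared. One of them lay 0.588 kb inside the edge of the window in replicate 1 (46600409 to 46600714), with folds of 9.91 and 7.63. Outside that edge the nearest peaks lay 11.8 kb away with a fold of 19.1 in replicate 1 and 5.96 kb away with a fold of 6.46 in replicate 2. The other shared site on this side, 46681324 to 46681496, had 5.42 and 5.47. Unshared were 3 sites of replicate 2, with folds of 5.37, 7.43 and 3.85, and 2 of replicate 1, with 7.93 at 46612473 to 46612641 and 6.53 at 46702997 to 46703250, close beside the reproducible region.

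The HOXB13 side of the HOXB cluster held 6 sites, 3 of them shared and all 3 of higher fold in replicate 2. The unshared ones were weak, with 4.04 and 4.85 in replicate 1 and 4.25 in replicate 2. One shared site, 155 kb from the HOXB1 end (46754598 to 46754836), had 6.20 in replicate 1 and 9.80 in replicate 2. Nearer to HOXB13, a gene of the posterior gut and prostate, sites 195 kb and 206 kb from the HOXB1 end had folds of 4.97 and 5.04 in replicate 1 and 8.07 and 8.98 in replicate 2.

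The HOXA cluster had 7 sites, 6 of them shared, and 1 was a reproducible region. This was chr7:27183040-27183448, 53.3 kb from the low end of the cluster window, with folds of 19.5 and 14.3 in replicates 1 and 2, a mean of 16.9 ± 3.68 (SD, n = 2), and 62 and 88 fragments. A second site, 94.9 kb from that end (replicate 1 interval 27224727 to 27225050), had 59 and 73 fragments. Its fold was 15.5 in replicate 1 and 7.42 in replicate 2, over backgrounds of 2.60 and 7, and it was not in the IDR table. Its fold was thus lower in replicate 2 and its fragment count higher. The fragments are not corrected for the coverage of replicate 2, which was 1.57 times that of replicate 1. The site at 27162922 to 27163109 had folds of 7.78 and 9.10. The 3 other shared sites were weak, with 4.34 and 3.84 at 27154778 to 27155091, 3.96 and 4.36 at 27190200 to 27190471, and 4.35 and 4.45 at 27234718 to 27234921. Replicate 2 alone had a site at 27212108 to 27212371, with a fold of 4.55 and 50 fragments over a background of 8.

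The HOXC cluster held 11 sites, 7 of them shared, and 3 of the 6 reproducible regions. A pair lay near the end that carries HOXC13, a gene of hair and nail formation, at 2.48 and 3.65 kb from the edge of the window. The stronger, chr12:54333529-54333800, had folds of 14.9 and 15.9 (mean 15.4 ± 0.707, SD, n = 2) with 69 and 96 fragments. Its neighbour, chr12:54332359-54332668, had folds of 8.51 and 8.96 and 54 and 66 fragments. It ranked 25602 of 25602, the lowest mean fold of any reproducible region, at an IDR of 0.0498. The third, chr12:54389182-54389594, lay near the middle of the cluster with folds of 13.9 and 10.1 and 85 and 100 fragments. All 3 were present in both replicates, yet the second only just passed the limit of the table.

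One HOXC site combined a tall pileup with a low fold. At 54361189 to 54361646 (replicate 1 interval) the pileup reached 88 and 104 fragments in replicates 1 and 2, more than at any cluster site but that of HOXD. Its backgrounds were 9 and 10.0 expected fragments, the highest of the cluster sites in both replicates, its folds were 8.25 and 7.65, and it was not in the IDR table. Ranked by fragments it would stand second among the 35 sites, ahead of 5 reproducible regions. In the 60.7 kb between the third region and the HOXC4 end lay 1 further site, with folds of 5.72 and 6.05. Of the remaining sites, that at 54346928 to 54347144 had 33 fragments in each replicate and folds of 6.32 and 4.96. The other 5 lay between 42.9 and 51.1 kb from the HOXC13 end and were weak. Only 1 of them was shared, with 3.78 and 3.34 at 54380109 to 54380366, and the 4 seen in replicate 2 alone had folds of 3.67 to 5.59.

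**Figure D3:**
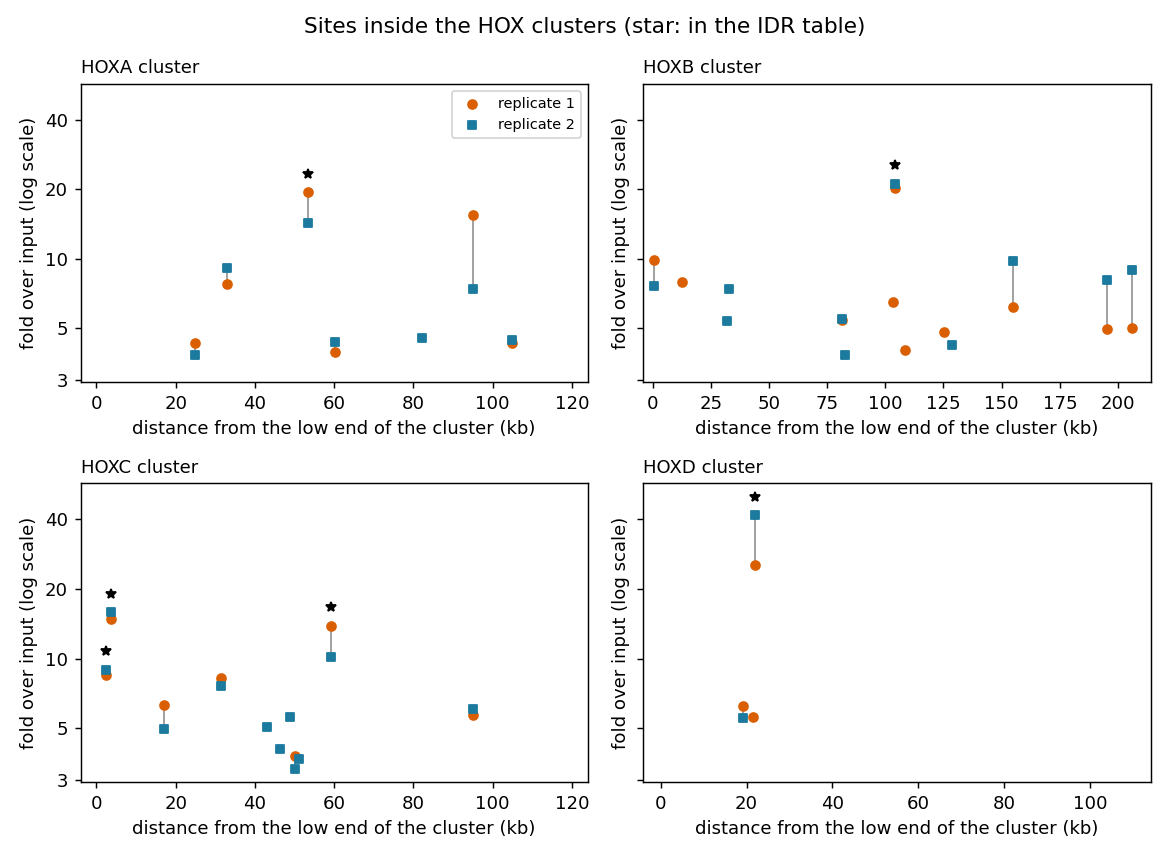
Fold over input (log axis) of each site in the 4 HOX clusters against its distance in kb from the low-coordinate end of the cluster, which is the anterior end of HOXA and HOXB and the posterior end of HOXC and HOXD; circles are replicate 1, squares replicate 2, a line joins both values of a shared site and a star marks the IDR table. The 3 sites of HOXD lie toward the HOXD13 end, those of HOXC run from the HOXC13 end to the middle with 1 beyond it at 95.1 kb, and those of HOXA and HOXB are spread over the cluster.

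Set against the gene order, 23 of the 35 sites, and 14 of the 21 shared ones, lay on the posterior side of the midpoint of their cluster. HOXC had 10 of 11 sites there, HOXD 3 of 3, HOXA 4 of 7 and HOXB 6 of 14. At both HOXA and HOXC, 1 of the sites so counted lay within 1 kb of the midpoint, and 2 HOXB sites counted as anterior lay within 2 kb of it. The excess thus lay in HOXC and HOXD. The flanks were also counted this way. The flanks beyond the posterior ends held 202 peaks in replicate 1 and those beyond the anterior ends 137, a ratio of 1.47 (exact conditional interval 1.18 to 1.85). In replicate 2 the counts were 249 and 164, a ratio of 1.52 (1.24 to 1.86). Posterior and anterior counts were 58 and 43 at HOXA, 50 and 44 at HOXB, 75 and 39 at HOXC and 19 and 11 at HOXD in replicate 1. In replicate 2 they were 67 and 44, 67 and 58, 86 and 47, and 29 and 15 at the same loci. Over its whole length the posterior flank thus had more peaks at each of the 4 loci in both replicates. At HOXC this held only beyond 500 kb from the cluster. Posterior and anterior counts there were 16 and 18 up to 250 kb and 17 and 15 from 250 to 500 kb in replicate 1. In replicate 2 they were 17 and 21, then 21 and 19. From 500 to 750 kb they were 23 and 2 in replicate 1 and 28 and 3 in replicate 2. For reproducible regions over all 4 loci the counts were 63 and 45, a ratio of 1.40 whose interval (0.940 to 2.1) includes 1. At HOXB both sides had 14. The comparison by gene order was chosen after the counts were seen and was not tested.

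In the flanks, the strongest region was chr2:178029246-178029742, in band 2q31.2, with folds of 67.7 and 60.1 in replicates 1 and 2, a mean of 63.9 ± 5.36 (SD, n = 2), and 218 and 238 fragments. It ranked 10 of 25602 and lay 969.5 kb beyond the HOXD1 end, near the outer limit of the flank. Of the 114 regions at these loci, 1, this one, was among the 500 strongest of the 25602, and 3 were among the strongest 1000. Counts this small are not read as few or many. The next by mean fold was chr2:176299746-176300230, 650.1 kb beyond the HOXD13 end, with 38.2 and 39.3 and 97 and 146 fragments. The locus with the fewest regions thus held the flanks' 2 strongest ones.

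Beyond the HOXD cluster on the HOXD1 side, no reproducible region was found until chr2:177918049-177918390, 858 kb from the edge (folds 27.3 and 15). From the strong cluster site to that region the stretch measured 946 kb, the widest without a reproducible region at any of the 4 loci. The widest elsewhere were 273 kb at HOXA, 217 kb at HOXB and 249.7 kb at HOXC. The stretch was not empty of peaks. It held 5 peaks in replicate 1 and 9 in replicate 2, 2 of each shared, with medians of 7.30 and 5.51 fold. The highest was 12.1-fold in replicate 1 (177447733 to 177447973, 38 fragments) and had no partner in replicate 2.

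At HOXA and HOXB, strong regions sat close to the cluster edges on the low-coordinate side, whereas the nearest at HOXC was near the median of the series. At HOXA the nearest region outside the cluster, chr7:27111147-27112187, lay 18.7 kb below the low end of the cluster window, had folds of 42.5 and 26.7 and 164 and 199 fragments, and was stronger than any region inside the HOXA cluster. At HOXB the nearest, chr17:46587874-46588941, lay 11.6 kb beyond the HOXB1 end with folds of 15.8 and 43.0 and 135 and 195 fragments. Its backgrounds were 7 and 2.65. The replicate 1 peak there had a second summit of higher fold, the 19.1 given above. At HOXC the nearest, chr12:54311065-54311454, lay 18.8 kb beyond the HOXC13 end with folds of 10.9 and 20.5, a mean of 15.7. Of the 3 reproducible regions within 2.36 kb there, 2 rest on the same peak in each replicate.

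On the high-coordinate side the nearest regions were farther away. They lay 61.2 kb beyond the HOXA13 end with folds of 11.3 and 13.3 (chr7:27311078-27311361), 98.9 kb beyond the HOXB13 end with 22.7 and 26.8 (chr17:46908733-46909179) and 42.6 kb beyond the HOXC4 end with 16.5 and 24.2 (chr12:54492430-54492921). At HOXD the nearest on the low side lay 85.8 kb beyond the HOXD13 end, with 16.6 and 12.8 (chr2:176864050-176864392). Over all 4 loci, the 250 kb next to the clusters held 25 reproducible regions, and the next 3 steps of 250 kb held 33, 19 and 31, so there was no steady change with distance.

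The 5 strongest flank regions of each locus, by mean fold, included regions on which the replicates were close and regions on which they were not. At HOXA, chr7:28031615-28032067 had 39.6 and 37.0 fold in replicates 1 and 2 and 111 and 138 fragments. At HOXB, chr17:45921527-45922025 had 33.5 and 30.5 fold and 140 and 174 fragments. These 2 headed their loci, with SDs of 1.87 and 2.06.

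At HOXC the strongest was chr12:53611005-53611504, with 29.1 and 42.8 fold and 219 and 236 fragments. The next, chr12:54856775-54857190, had 51.2 in replicate 1 and 20.1 in replicate 2, over backgrounds of 1.79 and 6, with 153 and 175 fragments. At HOXA, chr7:27650460-27651293 differed the other way, with 14.7 and 46.9 fold, backgrounds of 9 and 2.65, and 158 and 213 fragments. In both regions the replicate with the higher background had the lower fold. Since the background was itself solved from the fold, this is not a separate observation. Replicate 2 had more fragments in each, not corrected for its coverage of 1.57 times that of replicate 1.

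The remaining ones ranged from 25 to 34.2 in mean fold. At HOXA they were chr7:28123241-28123792 with 26.0 and 42.4 and chr7:26704434-26705023 with 23.3 and 42.2. At HOXB they were chr17:47644038-47644456 with 37.8 and 19.3, chr17:47426889-47427324 with 16.7 and 38.3, and chr17:47355005-47355373 with 22.6 and 27.3. Neither replicate was always the higher.

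At HOXC they were chr12:53834664-53835838 with 22.6 and 39.4, chr12:53365346-53366317 with 37.6 and 18.5, and chr12:53893621-53894386 with 20.9 and 30.3. At HOXD they were chr2:178052277-178052757 with 23.4 and 31.3, chr2:176464604-176465646 with 21.7 and 32.5, and chr2:176263483-176264576 with 28.3 and 22.1. The first of these HOXD regions lies beside the strongest one, near the outer limit of the flank.

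The tallest pileup in the flanks, picked out after its values were seen, did not have the highest fold. At chr12:54069665-54070196, 260.0 kb beyond the HOXC13 end, 271 and 290 fragments stood over backgrounds of 10.0 and 9 and gave folds of 22.9 and 23.3. The highest counts over all peaks were 299 in replicate 1 and 312 in replicate 2. Whether pileups this tall are limited in height was not tested. Over the 114 regions the ratio of replicate 2 to replicate 1 ran from 0.378 to 3.18 for fold but from 0.702 to 2.45 for fragments. Fold was lower in replicate 2 in 51 regions and fragments in 9. These fragments are not corrected for coverage, which in replicate 2 was 1.57 times that in replicate 1. The median fragment ratio was 1.36, against 1.29 over all regions.

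**Figure D4:**
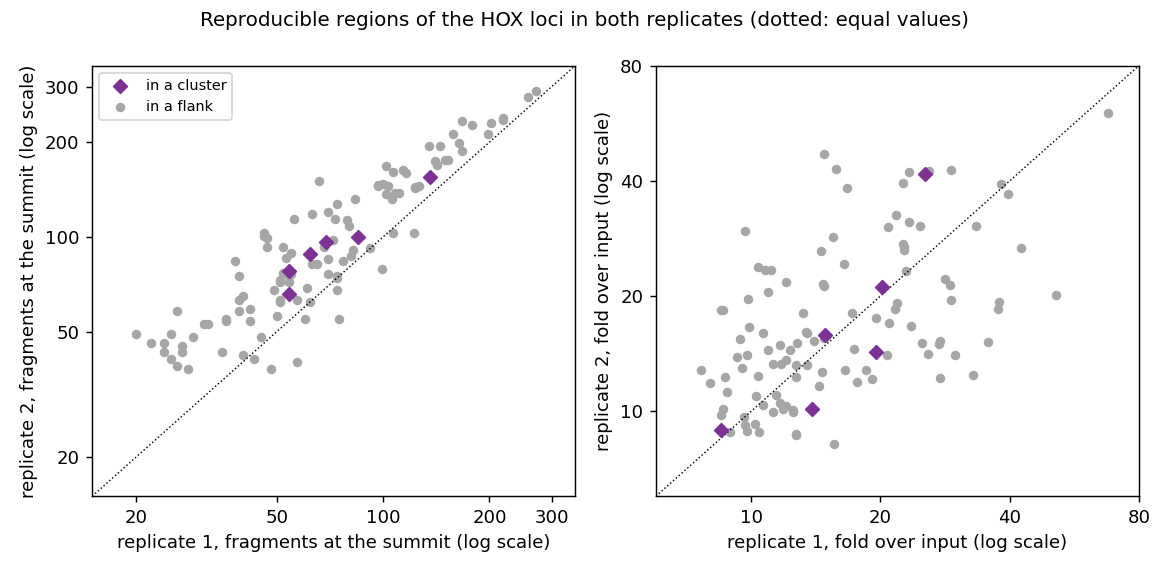
Fragments at the summit (left) and fold over input (right) of the 114 reproducible regions in replicate 1 (x, log axis) and replicate 2 (y, log axis); diamonds are the 6 regions in HOX clusters, circles the 108 in flanks and the dotted line marks equal values. Fragments, not corrected for the higher coverage of replicate 2, form a narrow band mostly above the line, and folds scatter on both sides of it.

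To ask whether any site differed between the libraries beyond counting noise, fragments were compared by two-sided exact binomial tests against regions of like height, adjusted by the Benjamini-Hochberg method over all 25602 regions. Of the 114 regions 3 passed at an adjusted p of at most 0.05, or 2.63%, against 2.92% of all regions, so the share was near the background. None of the 6 cluster regions did by this exact binomial test (lowest adjusted p = 0.876). An unadjusted p under 0.05 in the same test was reached by 0 of these 6, 20 of the 114 and 4213 of all 25602 regions. With only 6 regions, nothing is read from the 0. The 3 regions that passed after adjustment all lay on the HOXA13 side of the HOXA locus. At chr7:27645666-27646946 replicate 1 had 66 and replicate 2 had 151 fragments (exact binomial test, adjusted p = 0.00326), whereas chr7:27680792-27681742 had 75 and 55 (adjusted p = 0.0406) and chr7:28074329-28074634 had 57 and 40 (adjusted p = 0.0382). With one median share over all regions 5 passed, among them the first 2 of these (adjusted p = 0.00994 and 0.0441, exact binomial test) but not the third (0.0655). Among regions with an IDR of at most 0.01 only the first of the 3 was tested, and it was the 1 call (adjusted p = 0.0036, exact binomial test). At these 2 settings the share of all regions that passed is not given, so neither count is read as high or low. These tests compare 2 libraries and leave out the ordinary variation between replicates.

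Reproducible regions lay near each other about as often as elsewhere. Linked to another by at most 10 kb between summits, a distance chosen after seeing the data, were 2 of the 6 cluster regions and 38 of the 108 flank regions (35.2%, exact binomial interval 26.2 to 45.0%), against 34.8% of all regions. The 108 flank regions held 7 groups of at least 3 linked regions and the 6 cluster regions none, against 922 groups among all 25602 regions. With only 6 regions in the clusters, this is not read as a difference from the flanks. The group next to HOXC is 2 peaks in each replicate. The group with the most regions had 4, on the HOXA13 side of HOXA (chr7:27640885-27651293, mean folds 9.63 to 30.8), and it includes the region with 66 and 151 fragments named above.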

How the data were processed

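CEBPB ChIP-seq of NCM460 cells was deposited as a peak list for each of 2 ChIP samples and 1 IDR table of the pair; the 2 inputs enter through the background of the peak caller. Per the submitters' processing notes, the build was hg19 and the tools were Bowtie2 (version 2.3.4), MACS2 (version 2.1.2), SAMtools (version 1.9), bedtools (version 2.25.0) and FastQC (version 0.11.7). For their settings, for duplicate handling and for which input went with which ChIP sample, nothing was given in the sources used here. Deposited by the authors, the peak lists hold, per summit, a score, a fold (ratio) over background, and a −log10 p and −log10 q; every q-value is at most 0.05. The IDR table gives a −log10 IDR, and its interval pairs matched the lists in all entries; 2 columns of values per sample in it were not used.

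Fragments and background were solved from fold and −log10 p, taking fold as scaled pileup plus 1 over background plus 1. With scales of 0.927 and 0.800 per fragment in replicates 1 and 2, 100% of summits gave whole fragments within 0.005 on −log10 p. The lowest background was 1.00 and 1.36 expected fragments. The total depth is not held in the lists. A peak with several summits counted once, by its highest fold; positions are counted from 1. The median peak rested on 24 and 28 fragments.

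Densities have exact Poisson intervals, ratios exact conditional intervals and shares exact binomial (Clopper-Pearson) intervals, all at the 95% level and for counting error only. The limit given for 0 of 26 cluster peaks is instead the approximation of 3 counts over 26. Since sites of one genome are not replicates, clusters and flanks were not tested against each other. The fragment test used the running median of 1001 regions and was tested on simulated data. Named sites follow a rule: the sites inside the clusters (up to 12 each), the 5 flank regions of highest mean fold per locus, the region nearest to each cluster edge and the widest stretch without one. Members, lists and comparisons were chosen with earlier results of these data known. Alternatives changed the flank to 0.5 Mb, the cluster limits by 20 kb, the unit counted, the threshold, the overlap, the measure and the loci. Without a genome of the hg19 build no sequence is shown. One item is not reported here. Computation used SciPy 1.17.1, statsmodels 0.14.6, NumPy 2.4.6 and pandas 2.3.3 under Python 3.11.15, matplotlib 3.10.9 for figures and circlize 0.4.16 under R 4.3.3 for chromosome lengths and bands.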

Additional observations from a re-analysis of the deposited data

How the results depend on the processing

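Leaving out each locus in the peak densities was added after seeing the data. The 3 density ratios, 2 background ratios and 2 overlap shares moved by less than their interval or the spread between replicates in all 40 settings run for them. Some of these limits were wide, with 0.285 to 1.78 for reproducible regions and an SD of 0.237 for the background ratios. Few settings could have passed them. With the peaks of a single replicate, leaving out the other, the ratio of clusters to flanks for reproducible regions, 0.794, became 1.04 and 1.10; it was 0.568 without HOXC and 1.07 without HOXB, and 1.05 with cluster limits widened by 20 kb. The ratio of median folds moved by more than the SD between replicates in all 12 settings, but that SD was only 0.0134. With limits of such unlike width, densities cannot be called steadier than folds. In replicate 1 (0.941) it was 0.754 by −log10 p, 1.18 in the IDR table, and 0.968, 1.05, 0.895 and 0.971 without HOXA, HOXB, HOXC and HOXD. In replicate 2 (0.922) it was 1.02, 0.976, 0.986, 0.897, 1.17 and 0.900 in the same order. The 3 regions that differed between replicates became 5 against one median over all regions and 1 at an IDR of at most 0.01, where 71 of the regions at these loci were tested. The cause was not tested. Few cluster regions limit every ratio. No paired analysis was possible because ChIP and input samples with the same number could not be set against each other: input is held here only as the background of each peak list. Pairing each cluster with its own flanks gives the ratios per locus in the results.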
